A study of Homo sapiens with 17 samples.

Results

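The 36 genes described here encode proteins of epithelial cell junctions and the factors known for dissolving them. They comprise cadherins, catenins, claudins and other tight junction proteins, desmosome proteins, epithelial polarity and splicing factors, vimentin, and transcription factors of the epithelial to mesenchymal transition (EMT). Members were picked by gene symbol, and all 36 are among the 27315 genes of the table. A filter on low values kept 24 of them, among 12484 genes in all, and the other 12 are described separately because their values lie near the floor of the scale.

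RNA was sequenced from 786-O, a line grown from a human kidney cancer of the clear cell type that lacks functional VHL, in which HIF2a (gene symbol EPAS1) accumulates whatever the oxygen supply. Every group carried the pLenti CRISPR-V2 lentivirus with Cas9 and a guide RNA and was kept under antibiotic selection. The groups were HIF2a sg4, HIF2a sg6 and the scrambled-guide control of the HIF2a experiment (the HIF2a control), then USP37 sg3, USP37 sg9 and the scrambled-guide control of the USP37 experiment (the USP37 control). Each had 3 libraries except the USP37 control, which had 2. Whether the cells were a clone or a selected pool, and whether replicates were separate cultures, is not given in the sources used here, so p-values measure the spread between these libraries, which may be technical. The series title concerns removal of ubiquitin from HIF2a by the deubiquitinase USP37, so the comparisons ask which transcripts differ when either gene is targeted.

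Adherens junctions hold neighbouring cells together through cadherins, whose tails are tied to actin by catenins. Tight junctions, built from claudins, occludin and plaque proteins such as cingulin, seal the space between cells, and desmosomes join desmogleins and desmocollins to keratin filaments through plakoglobin, plakophilins and desmoplakin. In EMT, repressors of the SNAI and ZEB families bind E-box sequences in promoters of junction genes, and cells commonly exchange E-cadherin for N-cadherin and gain vimentin. Loss of E-cadherin is a known feature of clear cell renal carcinoma, and the kidney tubule also uses other cadherins, among them CDH6 and CDH16.

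Promoter sequences are shown for 4 members whose values carry the comparisons: DSP and CLDN4, the members furthest below control with the HIF2a guides, CLDN1, called higher in both experiments, and CRB3, called in opposite directions. Each sequence is the 250 bases before the gene's start in RefSeq (GRCh38.p14), 5′ to 3′ on the gene's strand. Capitals mark the E-box CACCTG or CAGGTG, the reverse complement of each other, and the HIF core ACGTG or GCGTG searched on both strands.
DSP (chr6:7541421-7541670, plus strand): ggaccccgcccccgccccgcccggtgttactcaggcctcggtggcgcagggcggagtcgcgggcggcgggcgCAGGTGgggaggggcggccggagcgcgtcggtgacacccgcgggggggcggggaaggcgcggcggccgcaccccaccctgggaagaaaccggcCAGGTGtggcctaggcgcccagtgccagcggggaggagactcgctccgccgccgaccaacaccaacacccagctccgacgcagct
CLDN4 (chr7:73830746-73830995, plus strand): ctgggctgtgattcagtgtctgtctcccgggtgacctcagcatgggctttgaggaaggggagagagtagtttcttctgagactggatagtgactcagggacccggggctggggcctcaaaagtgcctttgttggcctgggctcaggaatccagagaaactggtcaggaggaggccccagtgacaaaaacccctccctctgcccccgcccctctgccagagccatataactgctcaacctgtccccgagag
CLDN1 (chr3:190322447-190322696, minus strand): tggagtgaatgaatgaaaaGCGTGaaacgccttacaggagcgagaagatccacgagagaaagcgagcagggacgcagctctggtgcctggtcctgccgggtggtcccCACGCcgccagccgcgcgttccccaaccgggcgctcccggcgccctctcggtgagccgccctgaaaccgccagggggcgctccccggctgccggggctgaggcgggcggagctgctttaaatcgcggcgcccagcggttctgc
CRB3 (chr19:6464021-6464270, plus strand): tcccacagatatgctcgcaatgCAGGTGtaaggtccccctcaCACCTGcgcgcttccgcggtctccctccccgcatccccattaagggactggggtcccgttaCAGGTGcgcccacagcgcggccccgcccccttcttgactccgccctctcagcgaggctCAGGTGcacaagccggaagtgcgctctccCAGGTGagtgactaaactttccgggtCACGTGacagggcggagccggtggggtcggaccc
The DSP window held 2 E-boxes, beginning 178 and 85 bases before the start. The CLDN4 window held none of these motifs, and the CLDN1 window held 2 GCGTG cores, at 231 and 143 bases. CRB3 had 5 E-boxes, and its CACGTG palindrome holds ACGTG on both strands. RefSeq windows were matched for 20 of the 36 members. An E-box was found in a window of 11 of these 20 genes, in 13 of their 39 windows, and in 17.5% of all 35116 windows searched. ACGTG was found in windows of 9 members (9 of 39 windows, 18.5% of all windows) and GCGTG in those of 10 (15 of 39 windows, 32.2% of all windows). A match describes letters in a window and does not identify a bound site.

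Values are those the authors deposited, variance-stabilised and batch-corrected, on a scale like log2 that flattens towards a floor of 5.14, so changes of weakly expressed genes are understated. They are not per length, so levels of different genes are not compared. The depth per library is unknown. EPAS1 was -1.97 on the log2 scale with the HIF2a guides and USP37 was -1.0 with the USP37 guides, each against its own control. Each was also lower in the other experiment by limma. EPAS1 was -0.72 with the USP37 guides (adjusted p = 6.6e-05) and USP37 was -0.44 with the HIF2a guides (adjusted p = 0.00903). Distance was measured from each library to the mean of the other libraries of its group. In the HIF2a experiment it was largest for HIF2a sg6 libraries 2 and 3 and HIF2a control library 2 (1.40 to 1.78 times the median distance). Of 10 markers of renal epithelium and clear cell carcinoma, 8 passed the filter, and CA9 and LRP2 did not. Of markers of other cells, 2 of 6 for fibroblasts, 2 of 5 for the 293T packaging line, 1 of 5 for leukocytes and 0 of 5 for endothelium passed. By GENCODE v29, 10 members share exons with another gene of the table, 8 of them tested (CLDN12, CRB3, CTNNA1, CTNND1, DSG2, VIM, ZEB1 and ZEB2), and their values are uncertain to that extent. In bulk RNA, fewer cells expressing a gene and less RNA per cell cannot be told apart.

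With the HIF2a guides, desmoplakin and claudin-4 mRNA were lower while plakoglobin, desmocollin-2, claudin-1, EPCAM and the cadherins CDH4, CDH6 and CDH11 were higher. Among the transcription factors, ZEB2 and SNAI1 were lower. Of the 24 tested members, 9 were higher in the mean of the guides against control and 6 were lower, by limma at an adjusted p under 0.05, where 16.1% of all tested genes were called higher and 14.5% lower. The median absolute change was 0.59 over the members and 0.17 over all tested genes, and 9 members were called with a change of at least 1 log2 unit, as were 3.07% of all tested genes. With each guide taken alone, the same 9 members were called higher (background 9.04%) and 5 lower (background 7.48%). Vimentin was not among them, at -0.23 with sg4 (adjusted p = 0.0906) and -0.24 with sg6 (adjusted p = 0.065). Leaving out 1 library ended the single-guide calls of CGN (without sg4 library 2, sg6 library 1 or HIF2a control library 2, adjusted p 0.0523 to 0.1) and of SNAI1 with sg4 (without sg4 library 3 or HIF2a control library 1, 0.0658 and 0.0606). The CTNNA1 call was lost with sg4 without sg4 library 2 or HIF2a control library 2 (0.114 and 0.0871), and with sg6 without any sg6 library or HIF2a control library 1 or 2 (0.0596 to 0.136) or with the replicate block (-0.21, adjusted p = 0.0656).

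Of the cadherins tested, CDH4, CDH6 and CDH11 rose. CDH6, K-cadherin of the proximal tubule, had values of 14.27, 14.52 and 14.59 with sg4 and 14.58, 14.49 and 15.15 with sg6, against 13.18, 13.48 and 13.20 in the HIF2a control. Every guide library was above every control library, and CDH6 rose by 1.31 (SE 0.12, adjusted p = 1.31e-08). CDH4, R-cadherin, had 9.55, 9.73 and 9.70 with sg4 and 9.76, 9.69 and 9.71 with sg6, against 8.20, 8.53 and 8.52 in the HIF2a control. Its guide libraries lay close together and above the controls, with a rise of 1.28 (SE 0.10, adjusted p = 1.61e-09). CDH11, a cadherin known from mesenchymal cells and osteoblasts, had 9.21, 9.50 and 9.73 with sg4 and 10.16, 10.15 and 10.58 with sg6, against 8.13, 8.64 and 8.40 in the HIF2a control. It was above control in every guide library, highest with sg6, and rose by 1.50 (SE 0.14, adjusted p = 2.31e-08). N-cadherin (CDH2), the cadherin typical of EMT, had 12.45, 12.58 and 12.67 with sg4 and 12.12, 12.07 and 12.20 with sg6, against 12.21, 12.34 and 12.25 in the HIF2a control. The sg4 libraries were above the controls and the sg6 libraries all below them, one by a narrow margin, so that the mean of the guides was 0.08 (SE 0.07, adjusted p = 0.401) with a 95% interval of -0.06 to 0.23.

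**Figure D1:**
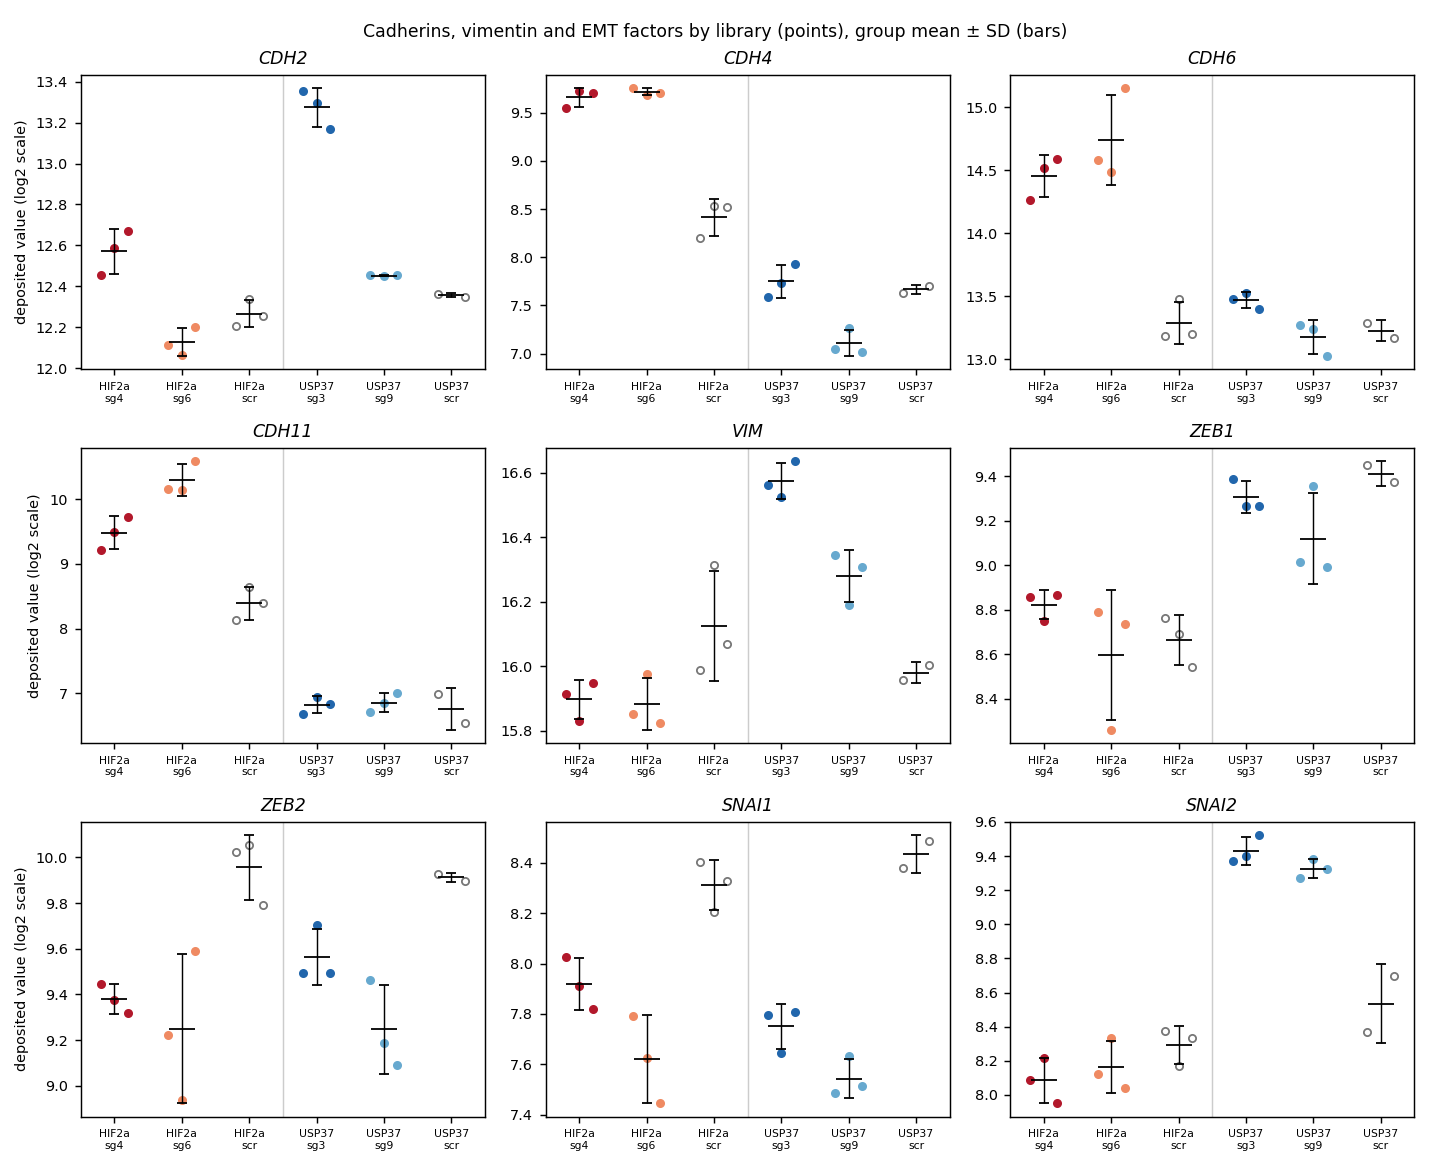
Deposited log2-scale values (y axis, a separate range per gene) of 4 cadherins, vimentin and 4 EMT factors in each library; points are libraries, bars the group mean ± SD, and scr a scrambled control. CDH4, CDH6 and CDH11 lie above their control with both HIF2a guides, SNAI1 and ZEB2 lie below control in both experiments, and SNAI2 lies above its control with both USP37 guides.

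CTNNA1, alpha-catenin, which ties the cadherin complex to actin, had 13.25, 13.11 and 13.25 with sg4 and 13.27, 13.20 and 13.25 with sg6, against 13.43, 13.55 and 13.39 in the HIF2a control. All guide libraries were slightly below all controls, and CTNNA1 fell by 0.23 (SE 0.07, adjusted p = 0.00986). Without HIF2a control library 2 the CTNNA1 change was -0.19 (adjusted p = 0.0681), and without the 3 far libraries it was -0.17 (adjusted p = 0.124). CTNND1, p120-catenin, which stabilises cadherins at the membrane, was 0.03 (SE 0.09, adjusted p = 0.858), with its guide and control libraries overlapping.

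Tight junction members moved in both directions. CLDN4 had 6.54, 6.32 and 6.62 with sg4 and 6.54, 6.53 and 6.67 with sg6, against 8.61, 8.41 and 8.34 in the HIF2a control. The guide libraries formed a narrow band far below the controls, and CLDN4 fell by 1.92 (SE 0.13, adjusted p = 1.42e-10). CLDN1, whose 2 GCGTG cores are shown above, had 13.48, 13.65 and 13.69 with sg4 and 13.10, 13.06 and 13.26 with sg6, against 12.08, 12.39 and 12.30 in the HIF2a control. Guide libraries were all above control, with sg4 above sg6, and CLDN1 rose by 1.12 (SE 0.09, adjusted p = 1.16e-09). CGN, cingulin of the tight junction plaque, had 6.30, 6.72 and 6.48 with sg4 and 6.60, 6.30 and 6.60 with sg6, against 6.0, 5.55 and 6.04 in the HIF2a control, close to the floor. The HIF2a control mean lay under the filter threshold and both guide means above it. Guide and control libraries did not overlap, and CGN rose by 0.64 (SE 0.16, adjusted p = 0.00494). Without HIF2a control library 2 the CGN change was 0.48 (adjusted p = 0.0534), and without the 3 far libraries 0.53 (adjusted p = 0.0559). The scaffold TJP1 (ZO-1) was -0.21 (SE 0.12, adjusted p = 0.176), the adhesion molecule F11R (JAM-A) 0.12 (SE 0.08, adjusted p = 0.269) and CLDN12 -0.03 (SE 0.08, adjusted p = 0.813), and none of these passed the test. TJP1 passed it without HIF2a sg6 library 3 (-0.29, adjusted p = 0.0315).

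EPCAM, an epithelial adhesion molecule, and CRB3, a Crumbs protein of the apical membrane, both rose. EPCAM had 8.04, 7.81 and 7.87 with sg4 and 7.59, 7.80 and 7.59 with sg6, against 6.45, 6.25 and 6.23 in the HIF2a control. Its guide libraries were all above their control, by 1.47 (SE 0.13, adjusted p = 1.36e-08). They reached only the lower end of the range in the USP37 control, at 8.01 and 8.53. CRB3 had 7.10, 7.24 and 7.38 with sg4 and 7.74, 7.47 and 7.48 with sg6, against 6.54, 6.67 and 6.84 in the HIF2a control. The lowest guide library was above the highest of its control, and CRB3 rose by 0.72 (SE 0.12, adjusted p = 8.43e-05). CRB3 shares exons with DENND1C on the opposite strand, and the kit named in the labels' protocols does not mark strand. DENND1C, named after its values were seen, was 0.56 higher with the HIF2a guides (adjusted p = 0.0169), and the reads of the pair cannot be told apart.

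Desmosome transcripts moved in both directions. DSP, desmoplakin, which anchors keratin filaments, had 7.06, 6.77 and 6.67 with sg4 and 5.82, 5.46 and 5.71 with sg6, against 9.09, 9.12 and 8.85 in the HIF2a control. Both guides were far below control, sg6 more so and near the floor, and DSP fell by 2.77 (SE 0.12, adjusted p = 6.36e-14), the largest change among the 24 members. JUP, plakoglobin, which serves desmosomes and adherens junctions alike, had 8.85, 8.62 and 8.96 with sg4 and 8.86, 9.25 and 9.65 with sg6, against 7.57, 7.98 and 7.59 in the HIF2a control. The guide libraries were all above control and spread most with sg6, and JUP rose by 1.32 (SE 0.17, adjusted p = 2.22e-06). DSC2, a desmosomal cadherin, had 9.69, 9.66 and 9.68 with sg4 and 9.57, 9.21 and 9.36 with sg6, against 8.39, 8.53 and 8.31 in the HIF2a control. Guide and control libraries were well apart, with a rise of 1.12 (SE 0.11, adjusted p = 9.64e-08). DSG2, the partner desmoglein, had 12.27, 12.18 and 12.27 with sg4 and 11.75, 11.55 and 11.50 with sg6, against 11.88, 11.74 and 11.79 in the HIF2a control. Its sg4 libraries were above control and the sg6 libraries mostly below, giving 0.11 (SE 0.07, adjusted p = 0.242) for the mean of the guides. PKP3, plakophilin-3, was -0.31 (SE 0.12, adjusted p = 0.0658) and not called. It was called without HIF2a sg4 library 3 (-0.38, adjusted p = 0.0248) and without HIF2a control library 1 (-0.44, adjusted p = 0.0267).

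**Figure D2:**
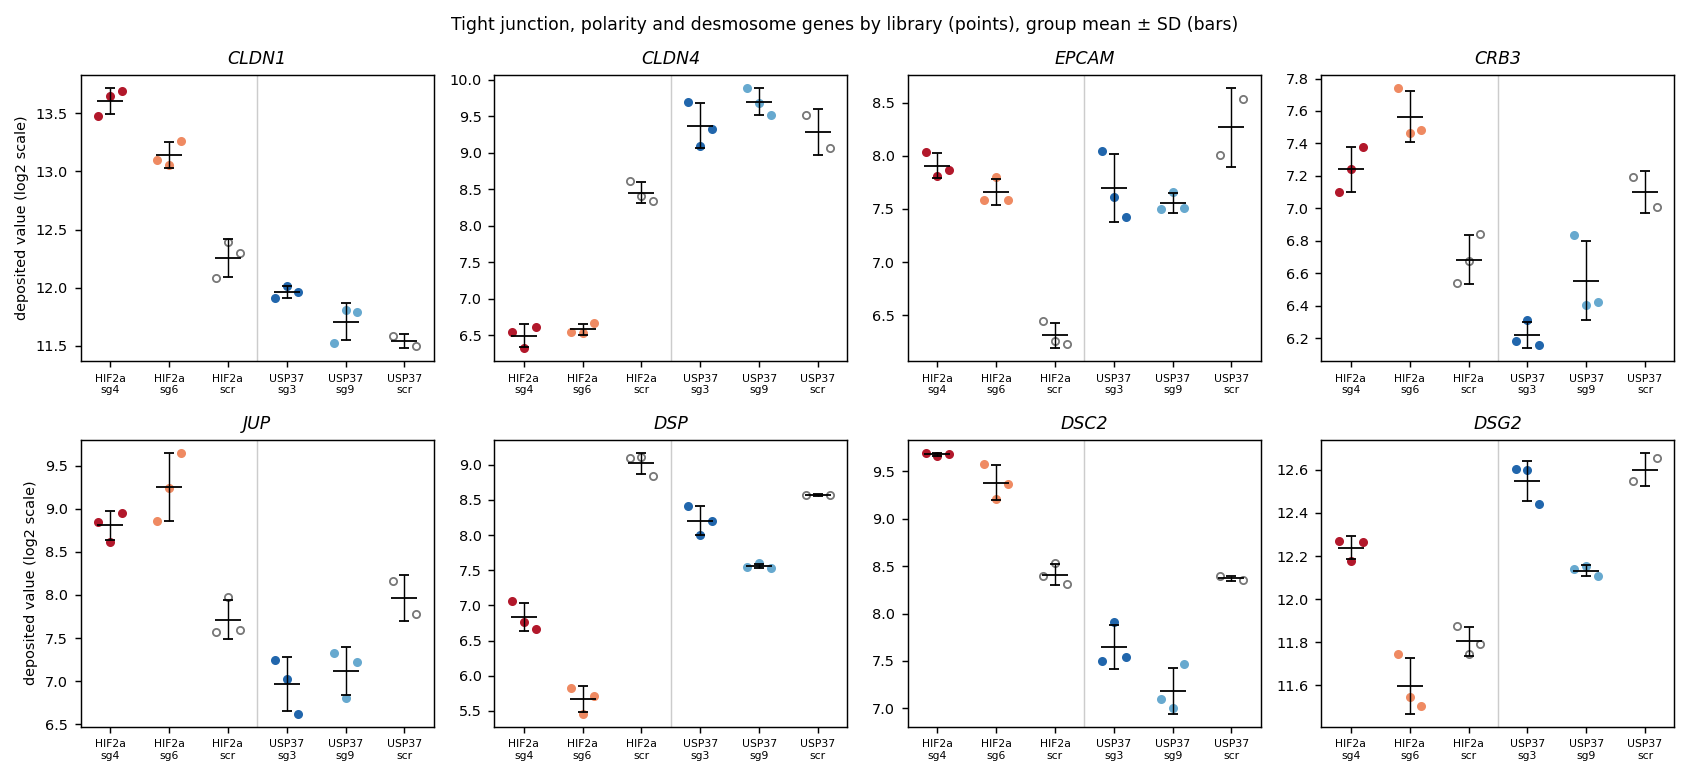
Deposited log2-scale values (y axis, a separate range per gene) of 8 tight junction, adhesion, polarity and desmosome genes in each library; points are libraries, bars the group mean ± SD, and scr a scrambled control. With both HIF2a guides DSP and CLDN4 lie below and JUP, DSC2, EPCAM and CRB3 above the HIF2a control, and with both USP37 guides the group means of JUP, DSP, DSC2, EPCAM and CRB3 lie below the USP37 control.

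Of the EMT factors, SNAI1 (Snail), a repressor of E-cadherin, had 8.02, 7.91 and 7.82 with sg4 and 7.79, 7.63 and 7.45 with sg6, against 8.40, 8.21 and 8.33 in the HIF2a control. All guide libraries were below control, and SNAI1 fell by 0.54 (SE 0.10, adjusted p = 0.000163). ZEB2, which binds the same E-boxes, had 9.45, 9.37 and 9.32 with sg4 and 9.22, 8.94 and 9.59 with sg6, against 10.02, 10.05 and 9.79 in the HIF2a control. Again no guide library reached the controls, although sg6 varied widely, and ZEB2 fell by 0.64 (SE 0.11, adjusted p = 0.000166). ZEB1 was 0.04 (SE 0.11, adjusted p = 0.802), with a 95% interval of -0.18 to 0.27, and SNAI2 (Slug) was -0.17 (SE 0.10, adjusted p = 0.207), with -0.37 to 0.03, and neither was called. VIM, the intermediate filament vimentin, had 15.91, 15.83 and 15.95 with sg4 and 15.85, 15.97 and 15.82 with sg6, against 15.99, 16.31 and 16.07 in the HIF2a control. The highest guide library was just below the lowest control, and VIM fell by 0.23 (SE 0.08, adjusted p = 0.0371). The VIM call was lost without HIF2a control library 2, at -0.14 (adjusted p = 0.265). The same held without HIF2a sg4 library 2 (-0.22, adjusted p = 0.0803). Leaving out sg6 libraries 1 or 3 gave VIM changes of -0.23 and -0.22 (adjusted p = 0.0673 and 0.0546), and leaving out HIF2a control library 3 gave -0.26 (adjusted p = 0.0603). The call was also lost with no filter (adjusted p = 0.153), with each experiment fitted alone (0.0778), with the replicate block (0.0638), with each library centred on its median (-0.22, 0.0543) and with libraries numbered 2 and 3 only (-0.30, 0.0627). Quantile normalisation instead moved the VIM change to -0.42 and gave a call with each guide, at -0.44 for sg4 (adjusted p = 2.49e-05) and -0.39 for sg6 (adjusted p = 9.45e-05).

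Against the libraries of both controls together, 7 members were called higher with every HIF2a guide library above all 5 control libraries: CDH4, CDH6, CDH11, CLDN1, CGN, JUP and DSC2. Of all tested genes, 7.52% met that rule. CGN passed the filter only through groups where it was high, and without it 6 members met the rule. The opposite rule, every guide library below all 5 controls, held for CLDN4, DSP, CTNNA1, ZEB2 and SNAI1, 5 members, against 7.43% of all genes. EPCAM and CRB3 were called higher but overlapped with the USP37 control. Among markers of other cells named for this check, the fibroblast marker LUM was -1.68 with the HIF2a guides (adjusted p = 3.83e-10) and the 293T markers UCHL1 and NEFL were -1.03 and -0.70. The rest of the 293T list did not pass the filter. NEFM was higher, averaging 5.66 with sg4 and 5.80 with sg6, against 5.37 in the HIF2a control. STMN2 averaged 5.14 in each of these groups, and LIN28B 5.22 with sg4 and 5.14 with sg6 and in the control. The other fibroblast marker that passed, COL1A1, was -0.31 (adjusted p = 0.097), and the 4 others did not pass the filter. Of these, COL3A1 averaged 5.31 with sg4 and 5.31 with sg6, against 6.29 in the HIF2a control, and DCN averaged 5.22 with sg4 and 5.24 with sg6, against 5.62 in that control. PDGFRB ran from 5.73 to 6.42 and POSTN from 5.03 to 6.04 over all libraries. The endothelial marker PECAM1, also under the filter, averaged 6.52 with sg4 and 6.38 with sg6, against 5.71 in the HIF2a control. The rest of the endothelial list was under the filter too. TEK was lower, at 5.33 with sg4 and 5.23 with sg6, against 5.55, while KDR had 5.70 and 5.76, against 5.55. CDH5 averaged 5.23 and 5.26 and VWF 5.23 and 5.23, each against 5.14. The part of other cells in the changes of CDH11 or DSP was not tested.

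The guides against HIF2a differed from each other in 5 members, CDH2, CDH11, CLDN1, DSP and DSG2, where 9.22% of all genes differed between sg6 and sg4. DSP was lower with sg6 than with sg4, at -1.17 (SE 0.13, adjusted p = 9.4e-06), and so was DSG2, at -0.64 (SE 0.08, adjusted p = 3.66e-05). CLDN1 at -0.47 (SE 0.10, adjusted p = 0.00436) and CDH2 at -0.44 (SE 0.08, adjusted p = 0.00121) were also lower with sg6. CDH11 was the member higher with sg6, by 0.82 (SE 0.16, adjusted p = 0.00251). EPAS1 mRNA itself was higher with sg6 than with sg4, by 0.81 (SE 0.12, adjusted p = 0.000154). Without the 3 far libraries, which leaves a single sg6 library whose spread is assumed to be that of the other groups, the CDH11 difference was 0.68 (adjusted p = 0.0628).

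With the USP37 guides, most junction members that moved were lower, among them desmocollin-2, plakoglobin, CRB3, desmoplakin, EPCAM, F11R and both catenins. SNAI2, CDH2 and vimentin were higher in the mean of the guides, while SNAI1 and ZEB2 were lower. Of these, CDH2 was called with sg3 alone and ZEB2 with sg9 alone. By limma, 5 of the 24 tested members were higher (22.4% of all tested genes) and 12 were lower (21.9%) in the mean of the guides against the USP37 control. Their median change was -0.29 (0.01 over all genes) and their median absolute change 0.42 (0.26 over all genes). A change of 1 log2 unit or more in the mean of the guides was called for 0 members and for 2.87% of all tested genes. With each guide alone, VIM and SNAI2 were called higher in both (2 members, 11.4% of all genes). EPCAM, CLDN12, F11R, JUP, DSC2, CTNND1, CRB3 and SNAI1 were called lower in both (8 members, 13.4% of all genes). Called with sg3 but not sg9 were CDH2 (0.10 with sg9, adjusted p = 0.393), CLDN1 (0.17, 0.213) and CGN (0.34, 0.189). Of members called in the mean, those called with sg9 but not sg3 were DSP (-0.37 with sg3, adjusted p = 0.0606), DSG2 (-0.05, 0.697), CTNNA1 (-0.20, 0.0754) and ZEB2 (-0.35, 0.0701). Called with sg9 alone and not in the mean were CDH4 (-0.56 with sg9, adjusted p = 0.00135), TJP1 (-0.68, 0.000848) and CLDN4 (0.41, 0.0449). Leaving out 1 library ended single-guide calls of EPCAM (sg3 library 3 or USP37 control library 3, adjusted p 0.0656 to 0.267), CLDN12 (sg3 libraries 2 or 3, sg9 library 1 or USP37 control library 2, 0.0583 to 0.23) and F11R (USP37 control library 3, 0.0633 and 0.11). It also ended those of CTNND1 with sg3 (any sg3 or control library, 0.052 to 0.175), JUP and CRB3 with sg9 (USP37 control library 2, 0.0626 and 0.0792) and VIM with sg9 (sg9 library 1 or 3 or either control, 0.0609 to 0.136). The sg9 call of VIM, 0.30, was also lost with quantile normalisation (0.14, adjusted p = 0.114), with no filter (0.118) and with libraries numbered 2 and 3 only (0.0834). The replicate block ended the call of CTNND1 with sg3 (-0.32, adjusted p = 0.0619). The USP37 control holds only 2 libraries, and leaving out either leaves a single one, whose spread is then assumed to be that of the other groups.

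Of the cadherins, CDH2 had 13.36, 13.30 and 13.17 with sg3 and 12.45, 12.45 and 12.45 with sg9, against 12.36 and 12.35 in the USP37 control. The sg3 libraries were well above control and the sg9 libraries just above it, and CDH2 rose by 0.51 (SE 0.08, adjusted p = 4.07e-05) in the mean. CDH4 was -0.24 (SE 0.11, adjusted p = 0.1), CDH6 0.10 (SE 0.13, adjusted p = 0.582) with a 95% interval of -0.18 to 0.38, and CDH11 0.08 (SE 0.16, adjusted p = 0.722) with -0.26 to 0.41. These 3 cadherins were not called in the mean, and the intervals of CDH6 and CDH11 do not reach the changes seen with the HIF2a guides. CTNND1 had 11.50, 11.58 and 11.52 with sg3 and 11.20, 11.16 and 11.07 with sg9, against 11.88 and 11.82 in the USP37 control. Each guide library was below control, lowest with sg9, and CTNND1 fell by 0.51 (SE 0.10, adjusted p = 0.000424). The read-through gene TMX2-CTNND1, which shares its exons and was named after its values were seen, was -0.34 (adjusted p = 0.0161). CTNNA1 had 13.30, 13.27 and 13.22 with sg3 and 13.03, 12.94 and 12.95 with sg9, against 13.45 and 13.47 in the USP37 control. It was below control throughout, again lowest with sg9, and fell by 0.34 (SE 0.08, adjusted p = 0.00104).

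Among tight junction members, F11R had 10.36, 10.17 and 10.14 with sg3 and 10.23, 10.23 and 10.16 with sg9, against 10.50 and 10.73 in the USP37 control. Guide libraries lay below control, and F11R fell by 0.40 (SE 0.09, adjusted p = 0.00101), which was -0.29 (adjusted p = 0.0643) without USP37 control library 3. CLDN12 had 10.29, 10.11 and 10.11 with sg3 and 10.11, 10.19 and 10.29 with sg9, against 10.60 and 10.41 in the USP37 control. The controls were above every guide library, and CLDN12 fell by 0.32 (SE 0.10, adjusted p = 0.00976). Without USP37 control library 2 the CLDN12 change was -0.23 (adjusted p = 0.184). CLDN1 had 11.92, 12.02 and 11.96 with sg3 and 11.52, 11.81 and 11.79 with sg9, against 11.58 and 11.50 in the USP37 control. The sg3 libraries were above control while an sg9 library lay between the controls, and CLDN1 rose by 0.30 (SE 0.10, adjusted p = 0.018). Without USP37 control library 2 the CLDN1 change was 0.34 (adjusted p = 0.0625), and without library 3 it was 0.26 (adjusted p = 0.158). CGN had 6.56, 7.17 and 6.39 with sg3 and 5.86, 6.20 and 6.21 with sg9, against 5.64 and 5.86 in the USP37 control. The guide libraries reached down to the upper control, and CGN rose by 0.65 (SE 0.19, adjusted p = 0.00825). Without USP37 control library 2 the CGN change was 0.54 (adjusted p = 0.111). CLDN4 was 0.25 (SE 0.15, adjusted p = 0.181) and TJP1 -0.31 (SE 0.13, adjusted p = 0.063), neither called in the mean. With sg9 alone CLDN4 was 0.41 (adjusted p = 0.0449) and was called higher, but under the replicate block it missed the threshold (0.34, adjusted p = 0.0952). This call was also lost without sg9 library 1 (0.32, adjusted p = 0.156) or 2 (0.42, 0.075), and the change was 0.19 without USP37 control library 3. Median centring (0.0519), quantile normalisation (0.0559), no filter (0.0788) and some other single libraries left out ended it too. TJP1 passed the test without sg9 library 1 (-0.36, adjusted p = 0.0368), without HIF2a sg6 library 2 (-0.31, adjusted p = 0.0217) and without HIF2a sg6 library 3 (-0.31, adjusted p = 0.0265), which enter its fit through the shared spread.

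CRB3 had 6.19, 6.31 and 6.16 with sg3 and 6.83, 6.40 and 6.42 with sg9, against 7.19 and 7.01 in the USP37 control. Every guide library was below control, lowest with sg3, and CRB3 fell by 0.71 (SE 0.14, adjusted p = 0.000335). DENND1C, on its other strand, was -0.52 (adjusted p = 0.0383). EPCAM had 8.05, 7.61 and 7.42 with sg3 and 7.50, 7.66 and 7.51 with sg9, against 8.01 and 8.53 in the USP37 control. The groups overlapped, since an sg3 library reached the lower control, and EPCAM fell by 0.64 (SE 0.15, adjusted p = 0.0018). Without USP37 control library 3 the EPCAM change was -0.38 (adjusted p = 0.125).

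Of the 5 desmosome members that passed the filter, which PKP2 did not, 4 fell, where 21.9% of all tested genes were lower. DSC2 had 7.50, 7.91 and 7.54 with sg3 and 7.10, 7.0 and 7.46 with sg9, against 8.39 and 8.35 in the USP37 control. The guide libraries lay clearly below control, and DSC2 fell by 0.95 (SE 0.13, adjusted p = 8.14e-06). JUP had 7.24, 7.03 and 6.62 with sg3 and 7.33, 6.80 and 7.23 with sg9, against 8.16 and 7.78 in the USP37 control. Guide and control libraries did not overlap, and JUP fell by 0.93 (SE 0.19, adjusted p = 0.000574). DSP had 8.41, 8.00 and 8.20 with sg3 and 7.55, 7.60 and 7.53 with sg9, against 8.58 and 8.56 in the USP37 control. The sg9 libraries were well below control and the sg3 libraries just below it, and DSP fell by 0.69 (SE 0.13, adjusted p = 0.00032). DSG2 had 12.61, 12.60 and 12.44 with sg3 and 12.14, 12.15 and 12.11 with sg9, against 12.55 and 12.66 in the USP37 control. Only the sg9 libraries lay apart from control, and DSG2 fell by 0.26 (SE 0.08, adjusted p = 0.0141) in the mean, or -0.21 (adjusted p = 0.175) without USP37 control library 3. PKP3 was -0.14 (SE 0.14, adjusted p = 0.435) and was not called.

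SNAI2 was the member with the largest rise with the USP37 guides. It had 9.37, 9.40 and 9.52 with sg3 and 9.27, 9.38 and 9.32 with sg9, against 8.37 and 8.70 in the USP37 control. Both guides were far above control and close to each other, a rise of 0.84 (SE 0.11, adjusted p = 5.31e-06). SNAI1 had 7.80, 7.65 and 7.81 with sg3 and 7.49, 7.63 and 7.51 with sg9, against 8.38 and 8.49 in the USP37 control. All guide libraries were below control, and SNAI1 fell by 0.79 (SE 0.11, adjusted p = 1.15e-05). ZEB2 had 9.49, 9.70 and 9.49 with sg3 and 9.46, 9.19 and 9.09 with sg9, against 9.93 and 9.90 in the USP37 control. No guide library reached control, and ZEB2 fell by 0.51 (SE 0.13, adjusted p = 0.00376), while ZEB1 was -0.20 (SE 0.13, adjusted p = 0.21). VIM had 16.56, 16.53 and 16.64 with sg3 and 16.35, 16.19 and 16.31 with sg9, against 15.96 and 16.00 in the USP37 control. Every guide library was above control, highest with sg3, and VIM rose by 0.45 (SE 0.10, adjusted p = 0.000821). The antisense gene VIM-AS1, which shares exons with VIM and was named after its values were seen, was 0.53 higher (adjusted p = 0.00256), and without strand their reads cannot be told apart. With quantile normalisation the VIM change was 0.20 (adjusted p = 0.0169).

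Read against all 5 control libraries, CDH2 and SNAI2 were called higher with every USP37 guide library above them (2 members, 9.28% of all genes). F11R, JUP, DSP, DSC2, CTNNA1, CTNND1, ZEB2 and SNAI1 were called lower with every guide library below them (8 members, 10.1% of all genes). Among markers of other cells, the 293T marker NEFL was -0.68 with the USP37 guides (adjusted p = 9.77e-06) and the leukocyte marker CD68 was 0.45 (adjusted p = 0.00106), while UCHL1 was 0.17 (adjusted p = 0.221), LUM -0.16 (adjusted p = 0.376) and COL1A1 0.01 (adjusted p = 0.95). The leukocyte markers PTPRC and CD3E, under the filter, averaged 5.14 with each USP37 guide, against 5.96 and 6.01 in the USP37 control. These control averages are of 2 libraries and rest on 1 high value per gene, 6.68 for PTPRC and 6.78 for CD3E. The part of other cells in these changes was not tested.

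The guides against USP37 differed in 10 members, all lower with sg9 than with sg3, where 30.8% of all tested genes differed in either direction. These were CDH2, CDH4, TJP1, CGN, DSP, DSG2, DSC2, CTNNA1, CTNND1 and VIM. CDH2 differed most, at -0.82 (SE 0.08, adjusted p = 2.22e-06). TJP1 was -0.74 (SE 0.13, adjusted p = 0.000406), CDH4 -0.64 (SE 0.11, adjusted p = 0.000405) and DSP -0.64 (SE 0.13, adjusted p = 0.00133). With sg9, TJP1 values of 10.30, 10.23 and 9.82 lay below the sg3 values of 10.85, 10.91 and 10.81. USP37 mRNA was -0.20 (SE 0.14, adjusted p = 0.304) between these guides. The CGN difference of -0.61 (SE 0.19, adjusted p = 0.0177) was lost without sg3 library 2 (-0.38, adjusted p = 0.134) or sg9 library 1 (-0.50, adjusted p = 0.0803). That of DSC2 (-0.46) was lost without sg3 library 2 or sg9 library 2 (adjusted p = 0.0848 and 0.0647), and that of VIM (-0.29) without sg3 library 1 or 3 or sg9 library 2 (0.05 to 0.0991), with no filter (0.119) and with quantile normalisation (-0.12, adjusted p = 0.188).

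Side by side, 6 members were called in the same direction in both experiments, and 8.43% of all tested genes were. CLDN1 changed by 0.30 with the USP37 guides and 1.12 with the HIF2a guides. CGN changed by 0.65 with the USP37 guides and 0.64 with the HIF2a guides. DSP, CTNNA1, ZEB2 and SNAI1 were the members lower in both. Another 5 members, EPCAM, JUP, DSC2, CRB3 and VIM, were called in opposite directions, and 6.82% of all genes were. Among these members, calls of CLDN1, CGN and EPCAM with the USP37 guides and of CGN, CTNNA1 and VIM with the HIF2a guides were lost without single libraries, as given above. The difference between the effects, USP37 minus HIF2a, was called for 16 of 24 members, where 38.6% of all genes were. JUP differed by -2.24 (SE 0.25, adjusted p = 6.95e-07), EPCAM by -2.12 (SE 0.20, adjusted p = 6.3e-08) and DSC2 by -2.07 (SE 0.17, adjusted p = 9.73e-09), each higher with the HIF2a guides and lower with the USP37 guides. For EPCAM the guide groups had similar means, 7.91 and 7.66 with HIF2a sg4 and sg6, and 7.69 and 7.56 with USP37 sg3 and sg9. Its control means were far apart, 6.31 for HIF2a and 8.27 for USP37. CDH4, CRB3, CDH11, CDH6, CLDN1, CTNND1, F11R and DSG2 had differences between -1.51 and -0.37, the last of which, DSG2, was -0.32 (adjusted p = 0.0785) without USP37 control library 3. CLDN4 at 2.17 (SE 0.20, adjusted p = 3.01e-08) and DSP at 2.08 (SE 0.18, adjusted p = 1.18e-08) ran the other way. DSP was further below control with the HIF2a guides, and CLDN4 was below control with them and 0.25, not called, with the USP37 guides. SNAI2, VIM and CDH2 followed at 1.01, 0.68 and 0.42. The difference was -0.25 (SE 0.15, adjusted p = 0.193) for SNAI1, with a 95% interval of -0.55 to 0.06, and 0.13 (SE 0.17, adjusted p = 0.576) for ZEB2, with -0.23 to 0.50, and neither passed the test.

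**Figure D3:**
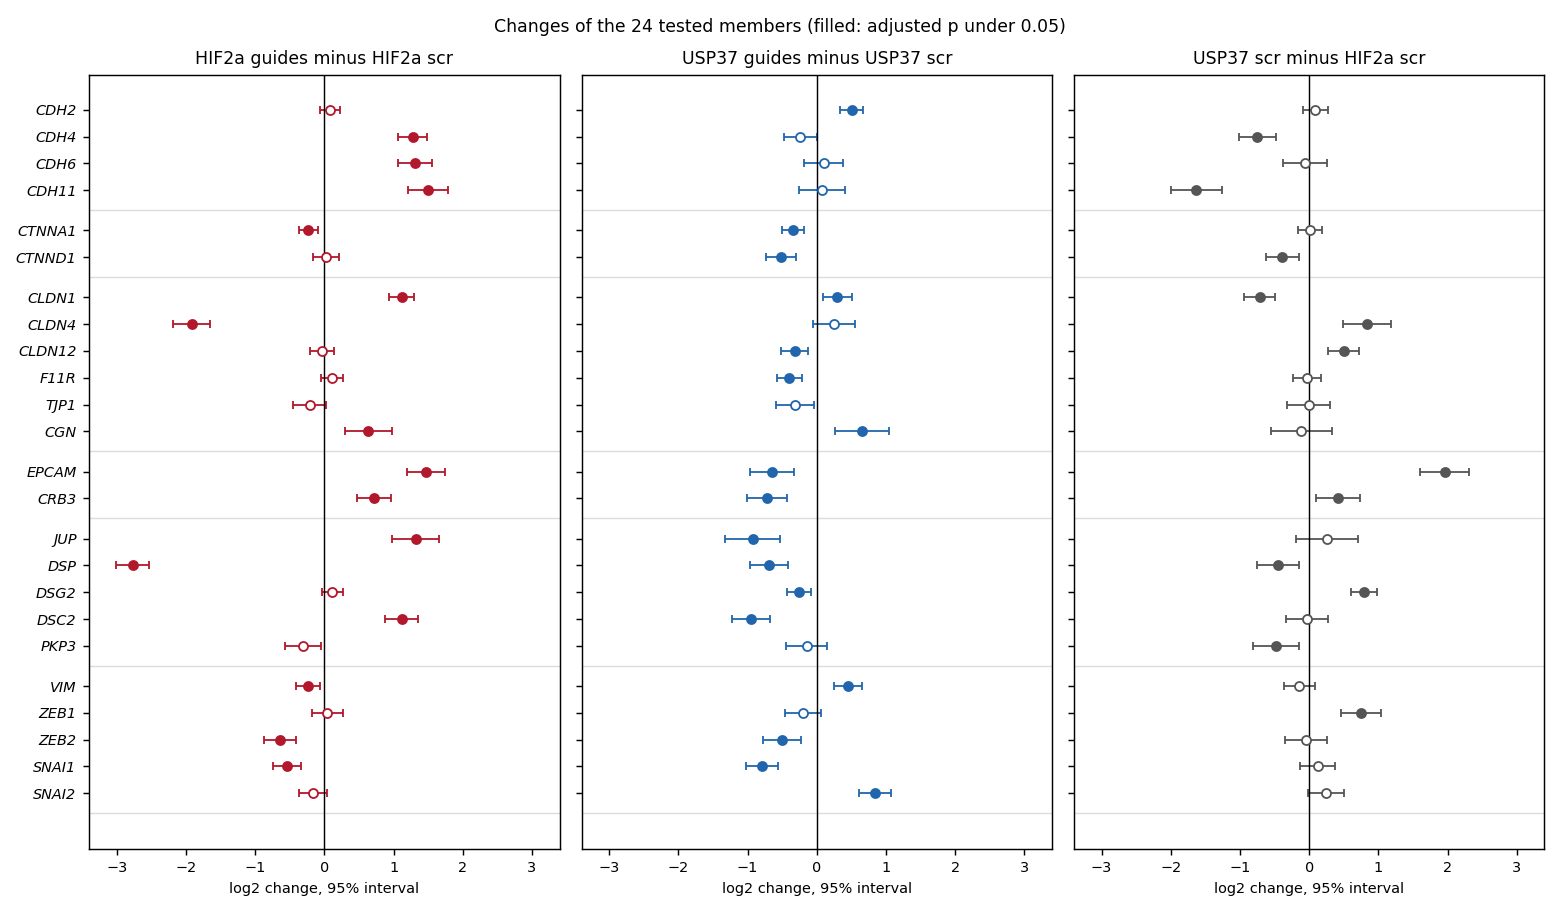
Log2 change (x axis, point with its 95% interval) of the 24 tested members, grouped as cadherins, catenins, tight junction, adhesion and polarity, desmosome and EMT genes from top to bottom, for the HIF2a guides, the USP37 guides and the USP37 control against the HIF2a control; filled points were called. DSP at -2.77 is the furthest point with the HIF2a guides, and EPCAM at 1.96 is the furthest between the controls.

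The scrambled controls were themselves unlike. USP37 control libraries differed from HIF2a control libraries in 12 of 24 members, and 40.5% of all tested genes differed. Control and experiment cannot be told apart here. EPCAM stood higher in the USP37 libraries by 1.96 (SE 0.17, adjusted p = 4.47e-08), more than either experiment's own EPCAM change. CDH11 differed by -1.63 (SE 0.18, adjusted p = 7.97e-07), CLDN4 by 0.83 (SE 0.17, adjusted p = 0.000467), DSG2 by 0.80 (SE 0.09, adjusted p = 1.42e-06), ZEB1 by 0.75 (SE 0.14, adjusted p = 0.000287), CDH4 by -0.75 (SE 0.13, adjusted p = 0.000113) and CLDN1 by -0.72 (SE 0.11, adjusted p = 3.48e-05). CLDN12 and CRB3 were higher in the USP37 control, at 0.50 and 0.42. PKP3, DSP and CTNND1 were lower there, at -0.48, -0.45 and -0.39. The calls of CRB3 and DSP were lost without HIF2a control library 1 or 2 or either USP37 control library (adjusted p 0.0597 to 0.227), and that of CRB3 also with the replicate block (0.43, adjusted p = 0.059). That of PKP3 was lost without HIF2a control library 2 or 3 or either USP37 control library (0.054 to 0.102), and that of CTNND1 without HIF2a control library 2 or USP37 control library 3 (0.0515 and 0.0812). JUP, DSC2, SNAI1, ZEB2, CTNNA1 and CDH2 were not called between the controls. For instance, DSC2 had 8.39 and 8.35 in the USP37 control and 8.39, 8.53 and 8.31 in the HIF2a control.

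The 12 members under the filter were CDH1, CDH3, CLDN7, OCLN, TJP3, PKP2, ST14, ESRP1, ESRP2, GRHL2, TWIST1 and TWIST2. ESRP2, with a mean of 6.10, lay just under the threshold of 6.14, and CGN, with 6.26, just over it. CGN passed through sg4, sg6 and sg3, its means in both controls and with sg9 being under the threshold, so it had to differ between groups to be tested. Without CGN, 8 members were higher with the HIF2a guides, 4 were higher with the USP37 guides and 5 were called in the same direction in both. Also without it, 8 members were called higher with each HIF2a guide and 9 differed between USP37 sg9 and sg3. The 12 members under the filter were fitted once with no filter, on 19292 genes, leaving out genes that held a single value in every library, as TWIST2 did. E-cadherin (CDH1) had 6.23, 6.41 and 6.35 with sg4 and 6.13, 6.05 and 6.07 with sg6, against 5.21, 5.50 and 5.15 in the HIF2a control. The guide libraries were above control yet close to the floor, and the change was 0.92 (SE 0.10, adjusted p = 3.1e-06) in that limma fit. CDH3, P-cadherin, was 0.53 (SE 0.11, adjusted p = 0.00197) and CLDN7 0.60 (SE 0.11, adjusted p = 0.000863) in the mean of the guides. For CDH3 the call held with sg4 (0.80) but not sg6 (0.26, adjusted p = 0.185), and for CLDN7 with both. The desmosomal plakophilin PKP2 had 5.17, 5.30 and 5.39 with sg4 and 5.69, 5.65 and 5.68 with sg6, against 6.37, 6.47 and 5.98 in the HIF2a control. Both guides were below control, at -0.79 (SE 0.15, adjusted p = 0.000669). OCLN, occludin, was 0.35 (SE 0.12, adjusted p = 0.055) and was not called in the mean, although it was with sg4 (0.52, adjusted p = 0.0169) and not sg6 (0.18, adjusted p = 0.456). With the USP37 guides none of these members was called in the mean of the guides, whereas OCLN was higher with sg9 (0.46, adjusted p = 0.036) and CLDN7 lower with sg3 (-0.52, adjusted p = 0.016). In the USP37 control against the HIF2a control OCLN was -0.51 (adjusted p = 0.0238) and CLDN7 0.43 (adjusted p = 0.0383). CDH1 was -0.09 (SE 0.12, adjusted p = 0.666) with the USP37 guides, with values of 5.88, 5.70 and 5.62 with sg3 and 5.21, 5.32 and 5.37 with sg9, against 5.39 and 5.82 in the USP37 control. The other members lay near the floor in every group. ESRP1, an epithelial splicing factor, ran from 5.10 to 5.80, GRHL2, a transcription factor of epithelial identity, from 5.08 to 5.39, and TWIST1 from 5.13 to 5.37. TJP3 (ZO-3) ran from 5.08 to 6.20, the membrane protease ST14 from 5.50 to 6.21 and ESRP2 from 5.76 to 6.35.

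**Figure D4:**
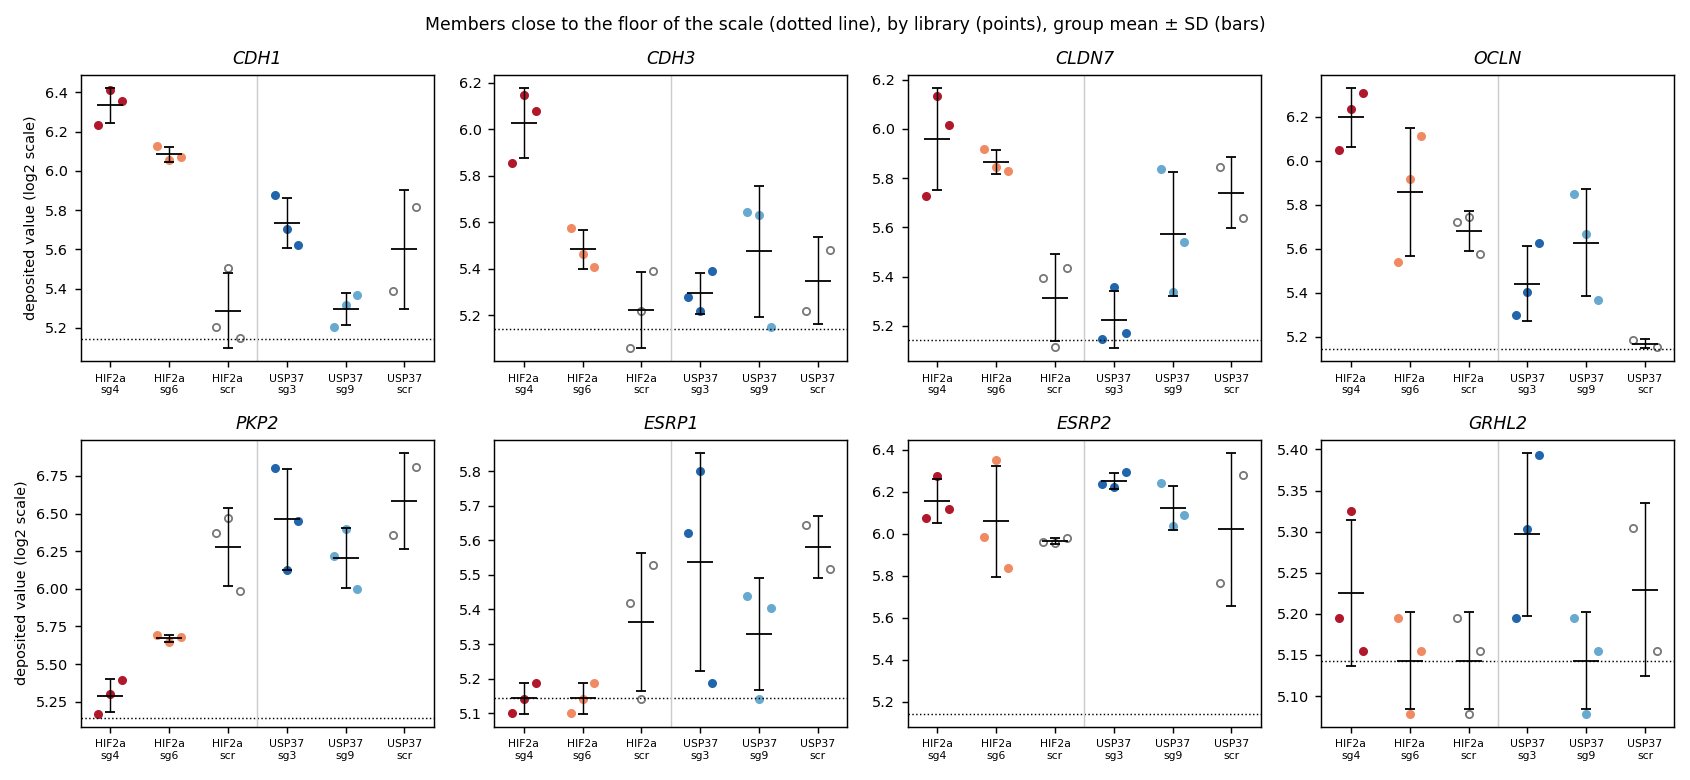
Deposited log2-scale values (y axis, a separate range per gene) of 8 members under the filter on low values in each library; points are libraries, bars the group mean ± SD, scr a scrambled control, and the dotted line the floor of 5.14. CDH1 and CLDN7 lie above their control and PKP2 below it with both HIF2a guides, while GRHL2 stays within 5.08 to 5.39.

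Further genes of the same structures were read from lists of related genes, against 16.1% higher and 14.5% lower of all tested genes with the HIF2a guides and 22.4% higher and 21.9% lower with the USP37 guides. Of 20 other adherens junction and polarity genes tested, 8 were higher (40%) and 1 lower (5%) with the HIF2a guides, and 4 higher (20%, near the share of all genes) and 6 lower (30%) with the USP37 guides. CDH13, T-cadherin, rose by 1.51 (SE 0.07, adjusted p = 5.74e-13) with the HIF2a guides, with 11.42 ± 0.04 for sg4 and 11.37 ± 0.12 for sg6, against 9.89 ± 0.07 in the control (SD, n = 3 each). LIMA1, which links the catenin complex to actin, rose by 0.67 (SE 0.07, adjusted p = 3.44e-07). In the USP37 experiment LIMA1 was also above control, averaging 10.40 with sg3 and 10.31 with sg9, against 9.98. With the USP37 guides CDH16, kidney-specific cadherin, fell by 1.76 (SE 0.14, adjusted p = 8.67e-09), and DLG1, a polarity scaffold, fell by 0.82 (SE 0.10, adjusted p = 3.73e-06). In the USP37 control against the HIF2a control, CDH13 was 0.93 (adjusted p = 2.66e-07) and CDH16 0.83 (adjusted p = 0.000342). The median changes of this list were 0.16 with the HIF2a guides and -0.17 with the USP37 guides, where those of all tested genes were -0.00454 and 0.01.

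Of 15 other tight junction genes, 6 were higher (40%) and 1 lower (6.67%) with the HIF2a guides, where 16.1% and 14.5% of all genes were, and 3 were higher (20%) and 7 lower (46.7%) with the USP37 guides, where 22.4% and 21.9% of all genes were. Their median changes were 0.22 with the HIF2a guides and -0.30 with the USP37 guides. CLDN2, the claudin of leaky proximal tubule junctions, had 11.82 ± 0.06 with sg4 and 11.83 ± 0.09 with sg6, against 9.84 ± 0.09 in the HIF2a control (SD, n = 3 each), a rise of 1.99 (SE 0.08, adjusted p = 5.91e-14). In the USP37 experiment it had 8.55 ± 0.07 with sg3 and 8.46 ± 0.06 with sg9 (SD, n = 3 each), against 10.05 ± 0.25 in the control (SD, n = 2), and CLDN2 fell by 1.55 (SE 0.09, adjusted p = 3.45e-10). CGNL1, the paralogue of cingulin, rose by 1.57 (SE 0.12, adjusted p = 1.4e-09) with the HIF2a guides. In the USP37 experiment CGNL1 was also above control, averaging 10.04 with sg3 and 9.74 with sg9, against 9.44. PATJ, a tight junction scaffold of the Crumbs complex, fell by 0.98 (SE 0.15, adjusted p = 2.24e-05) with the USP37 guides.

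Of 6 other desmosome genes, 2 were higher (33.3%) and 0 lower with the HIF2a guides (16.1% and 14.5% of all genes). In the USP37 experiment 2 were higher (33.3%) and 3 lower (50%), against 22.4% and 21.9% of all genes. The 2 higher genes were the keratins KRT8 and KRT18 (0.66, adjusted p = 6.56e-05), which the list includes although they are not desmosome proteins. The medians were -0.04 with the HIF2a guides and -0.09 with the USP37 guides. The plakins PPL and EVPL, relatives of desmoplakin, rose by 1.78 (SE 0.16, adjusted p = 9.5e-09) and 0.78 (SE 0.12, adjusted p = 2.32e-05) with the HIF2a guides, with which DSP fell. The mean of PPL in the HIF2a control, 5.73, lay under the filter threshold of 6.14, and its means with sg4 and sg6 were 7.33 and 7.69. With the USP37 guides KRT8, a simple epithelial keratin, rose by 0.70 (SE 0.09, adjusted p = 4.91e-06), and PERP, a desmosomal membrane protein, fell by 0.67 (SE 0.09, adjusted p = 8.15e-06). Between the controls, USP37 against HIF2a, PPL was 0.94 (adjusted p = 0.000844) and KRT8 -0.51 (adjusted p = 0.000601).

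Of 15 other genes of the epithelial program, 9 were higher (60%) and 2 lower (13.3%) with the HIF2a guides, set beside 16.1% and 14.5% of all genes. In the USP37 experiment 4 were higher (26.7%) and 6 lower (40%), set beside 22.4% and 21.9%. Medians were 0.40 with the HIF2a guides and -0.09 with the USP37 guides. MAL2, of apical transport, and the keratin KRT19 rose by 1.95 (SE 0.08, adjusted p = 4.9e-14) and 1.65 (SE 0.09, adjusted p = 5.66e-12) with the HIF2a guides. Between the controls both differed too, KRT19 being 1.35 higher (adjusted p = 4.44e-08) and MAL2 0.50 higher (adjusted p = 0.000598) in that of USP37. Both genes were also above control in the USP37 experiment. MAL2 averaged 11.13 with sg3 and 11.15 with sg9, against 10.45. KRT19 ran from 11.97 to 12.05 with sg3 and from 12.07 to 12.39 with sg9, against 11.43 to 11.70 in the USP37 control. ELF3, an epithelial transcription factor, fell by 1.0 (SE 0.10, adjusted p = 9.1e-08) and the surface protein CD24 fell by 0.97 (SE 0.10, adjusted p = 1.93e-07) with the USP37 guides. In the HIF2a experiment CD24 was also below control, with 12.31 for sg4 and 12.67 for sg6, against 13.46. ELF3 averaged 10.39 with sg4 and 10.51 with sg6, against 10.40 in the HIF2a control.

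Of 23 other mesenchymal and EMT genes, 5 were higher (21.7%) and 6 lower (26.1%) with the HIF2a guides, beside 16.1% and 14.5% of all genes. In the USP37 experiment 5 were higher (21.7%), near the 22.4% of all genes, and 8 lower (34.8%), beside 21.9%. Medians were 0.00 with the HIF2a guides and -0.07 with the USP37 guides. CD44, the hyaluronan receptor, rose by 1.17 (SE 0.08, adjusted p = 1.68e-10) with the HIF2a guides. CD44 was also above control in the USP37 experiment. It ran from 13.94 to 14.03 with sg3 and from 13.49 to 13.60 with sg9, against 12.78 to 12.84 in the USP37 control. AXL, a receptor tyrosine kinase, rose by 1.14 (SE 0.13, adjusted p = 5.73e-07) with the USP37 guides, and it was -1.11 in the USP37 control against the HIF2a control (adjusted p = 4.6e-06). In the HIF2a experiment AXL averaged 12.66 with sg4 and 13.12 with sg6, against 12.83 in control.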

How the data were processed

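One table was deposited by the authors, holding log2-like variance-stabilised values after their batch correction for 27315 gene symbols in 17 libraries. Per the submitters' processing notes, cutadapt, STAR 2.5.2b, Salmon, DESeq2 and genome build hg19 were used, with no roles stated. The annotation, the batch variable and the tool that corrected it are not stated there. Means over libraries numbered 1, 2 and 3 were equal for each gene to within 6.39e-14, so a replicate-number term had been removed. The 11 residual degrees of freedom used here ignore it, and p-values tend to be too small. The USP37 control has no library 1, so the removal was unbalanced and can also shift changes against that control. With a replicate term in the fit (the replicate block), CLDN4 with USP37 sg9 went from 0.41 to 0.34. DSP with USP37 sg3 went from -0.37 to -0.43. Depth is unknown, so no counting interval or floor is given.

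Genes were kept where their mean exceeded the 1st percentile of gene means (5.14) by 1 log2 unit or more, 12484 in all. Group means of 6 groups were fitted with limma 3.58.1 (mean-variance trend) in R 4.3.3, on every kept gene, and tested on simulated data first. Contrasts were the mean of both guides and each guide against the control of their experiment, guide against guide, USP37 effect minus HIF2a effect, and USP37 control minus HIF2a control. Adjusted p-values are Benjamini-Hochberg over all kept genes within a contrast, called under 0.05. Alternatives were other filters, scalings and weights, a replicate term, each experiment alone, and leaving out libraries. Exon overlap was read from GENCODE v29, by gene symbol, and promoters from RefSeq (GRCh38.p14). No coordinates of the hg19 processing are given.

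The members and lists were chosen with earlier results of these data known. All 36 members are described, those called in a mean of guides with each library's value. Of the lists of related genes, up to 2 called genes with the largest change per list and experiment are named, with EPAS1 and USP37. A gene that this rule names is not reported here. Markers of other cells and genes sharing exons with members were named after their values were seen.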

Additional observations from a re-analysis of the deposited data

Results flagged for a closer look

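In 4 comparisons, guides against a single target differed by limma's test and their changes against control had opposite signs. CDH2 differed by -0.44 (SE 0.08, adjusted p = 0.00121) between HIF2a sg6 and sg4: it was -0.14 with sg6 (adjusted p = 0.208) and 0.30 with sg4 (adjusted p = 0.00715), the sg4 call being lost without sg4 library 3 (0.25, adjusted p = 0.0548). DSG2 differed by -0.64 (SE 0.08, adjusted p = 3.66e-05) between the same guides, with -0.21 for sg6 (adjusted p = 0.0662) and 0.43 for sg4 (adjusted p = 0.000403). Between USP37 sg9 and sg3, CDH4 differed by -0.64 (SE 0.11, adjusted p = 0.000405), with -0.56 for sg9 (adjusted p = 0.00135) and 0.08 for sg3 (adjusted p = 0.646). TJP1 differed by -0.74 (SE 0.13, adjusted p = 0.000406), with -0.68 for sg9 (adjusted p = 0.000848) and 0.06 for sg3 (adjusted p = 0.784). In each case a guide's own change did not pass the test, so the opposite signs are point estimates.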

How the results depend on the processing

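No called member value changed sign in any alternative that was run. Of the 6412 recomputed member values, 6123 kept their side of the threshold with the same direction, 132 lost their call, 69 gained one and 88 uncalled values moved. Of members called in the mean of the HIF2a guides, 12 of 15 stayed called in every alternative, and CGN, CTNNA1 and VIM did not. With the USP37 guides 11 of 17 did, and EPCAM, CLDN1, CLDN12, F11R, CGN and DSG2 each lost the call without 1 of the USP37 control libraries. The number of members that differed between HIF2a sg6 and sg4 was 8 with array weights, against 5, and that between USP37 sg9 and sg3 was 5 with libraries numbered 2 and 3 only, against 10; the cause was not tested. Leaving out each library in turn gave 12 to 16 called members in the mean of the HIF2a guides and 13 to 18 in that of the USP37 guides. Deviations of same-numbered libraries correlated at -0.55 to 0.22 in the HIF2a experiment, with 0.11, 0.15 and 0.21 between sg6 and sg4, and at -0.19 to -0.07 in the USP37 experiment. The replicate term removed from the values makes same-numbered deviations offset one another, so these correlations could not show whether the numbers pair the libraries. With the replicate block, 14 members were called with the HIF2a guides, VIM being lost (-0.23, adjusted p = 0.0638), and 17 with the USP37 guides. Among single guides, guide pairs and controls, the block also ended the calls of CTNNA1 with HIF2a sg6, CTNND1 with USP37 sg3, CLDN4 with USP37 sg9 and CRB3 between the controls, and gave calls of DSP with USP37 sg3 (-0.43, adjusted p = 0.0321) and CLDN1 between USP37 sg9 and sg3 (-0.26, adjusted p = 0.0375). Quantile normalisation moved VIM to -0.42 with the HIF2a guides and 0.20 with the USP37 guides. Library medians lay -0.03 to 0.02 from their mean, which is the difference that centring each library on its median removed. With no filter 18 and 17 members were called, and with the stricter filter 13 and 15. The removal of the 3 far libraries was chosen after seeing the data. Depth is unknown, and values near the floor compress changes of CDH1, CGN, PKP2 and DSP.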
